A study of Homo sapiens with 2 samples.

Results

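The genes that encode claudins, the tight junction plaque, desmosomes and gap junctions were examined in RNA-seq of TFK1 cells, an established human cholangiocarcinoma line. They were taken by gene symbol, with no measured value in the rule, from the claudin, desmoglein, desmocollin, plakophilin, connexin and TJP families plus DSP, JUP and OCLN. This gave 60 genes of the 56638 in the deposited tables, made up of 23 claudins, 4 genes of the tight junction plaque and occludin, 7 desmosomal cadherins, 6 genes of the desmosomal plaque and 20 connexins. One library came from cells with shRNA knockdown of MBD2, a reader of methylated CpG sites (shMBD2), and the other from cells with a negative control (sh-NC). Both carried the labels of no treatment and of the same line. According to the study's methods, knockdown cells were made by lentivirus and selected with puromycin or G-418, and the labels do not name which MBD2 shRNA was sequenced. The study sequenced these cells to characterize MBD2 in cholangiocarcinoma at the molecular level. With 1 library per group there was no replicate and no test, and every interval below is a 95% counting interval that leaves out the variation between cultures.

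The libraries held 14728814 counts in shMBD2 and 14467406 in sh-NC. MBD2 itself was at 365 counts in shMBD2 against 1013 in the control (log2FC -1.48, interval -1.66 to -1.31). Log2FC is shMBD2 over sh-NC after TMM scaling (trimmed mean of M values, a correction for library composition) and a prior of 0.5 counts. Of the 8 biliary epithelial markers all had at least 10 counts, with summed levels of 4837 and 6047 TPM (a transcript level scaled for gene length and library size), although KRT19 was low beside KRT8, at 15.0 and 9.04 against 3006 and 3890 TPM. The 6 endothelial markers had 0 and 1 counts in all. Of the 8 leukocyte markers PTPRC had 0 and 1 counts, and 3 had at least 10 counts summed. These were CD14, with 152 and 126 counts, CORO1A, with 56 and 19 (log2FC 1.53, interval 0.78 to 2.38), and LAPTM5, with 29 and 3 (log2FC 3.07, interval 1.57 to 5.62), in a list that summed to 238 and 151. Most of the 316 and 139 fibroblast marker counts came from COL1A1, with 308 and 124, whereas COL1A2 had 0 and 1. The part of these marker differences in the results below was not tested. Of the 7 stratified epithelial markers TP63 alone exceeded 10 counts summed, with 35 and 61. In bulk RNA, fewer cells expressing a gene and less RNA per cell cannot be told apart.

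Tight junctions seal the space between epithelial cells. Claudins form their strands, some closing the space and others making pores for ions, while occludin and the TJP (zonula occludens) proteins join the strands to actin. Desmosomes bind neighboring cells through cadherins, the desmogleins and desmocollins, which plakoglobin, plakophilins and desmoplakin connect to keratin filaments. Connexins form gap junction channels that pass small molecules from cell to cell. Bile duct cells use these junctions to keep bile apart from the tissue beneath.

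Summed counts of each junction type were compared first, and a few abundant genes carry most of each sum. Claudin transcripts were higher in shMBD2 as a sum, with 5067 counts against 4023 and a log2FC of 0.32 (interval 0.26 to 0.38). Summed desmosomal transcripts were lower, with a log2FC of -0.26 (interval -0.33 to -0.19) for the summed cadherins and -0.19 (interval -0.23 to -0.15) for the summed plaque genes. Summed connexins, at -0.043 (interval -0.11 to 0.019), and the summed tight junction plaque with occludin, at -0.034 (interval -0.086 to 0.017), had intervals that contained 0. Whether the types differ from each other was not tested. For single genes, over the 10917 that reached 100 counts in the higher library, the median absolute log2FC was 0.17 and 1 gene in 4 exceeded 0.31.

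Promoter sequences are shown for the members furthest from 0 among those whose interval lacked 0 and that have an entry in the RefSeq promoter table (GRCh38.p14), because MBD2 binds methylated CpG sites. Each window holds the 250 bases before the start site, read 5′ to 3′ on the gene's strand, with every CG in capitals. Where a gene has several starts the first listed was taken. GJB2, CLDN4 and CLDN1 were higher in shMBD2, and OCLN and DSC3 were lower. The windows lie at chr13:20192939-20193188 (minus strand) for GJB2, chr7:73830746-73830995 (plus strand) for CLDN4 and chr3:190322447-190322696 (minus strand) for CLDN1. Those of OCLN and DSC3 lie at chr5:69492297-69492546 (plus strand) and chr18:31042743-31042992 (minus strand).
GJB2: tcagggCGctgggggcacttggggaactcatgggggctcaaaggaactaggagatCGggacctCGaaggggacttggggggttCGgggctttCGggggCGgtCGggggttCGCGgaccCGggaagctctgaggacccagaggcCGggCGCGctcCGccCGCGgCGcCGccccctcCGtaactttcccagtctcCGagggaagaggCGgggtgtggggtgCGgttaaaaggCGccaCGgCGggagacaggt
CLDN4: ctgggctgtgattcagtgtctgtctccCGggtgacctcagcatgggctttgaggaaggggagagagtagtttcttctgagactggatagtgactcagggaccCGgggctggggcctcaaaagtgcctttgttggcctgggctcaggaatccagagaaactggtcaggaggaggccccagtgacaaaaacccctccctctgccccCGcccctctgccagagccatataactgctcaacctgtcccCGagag
CLDN1: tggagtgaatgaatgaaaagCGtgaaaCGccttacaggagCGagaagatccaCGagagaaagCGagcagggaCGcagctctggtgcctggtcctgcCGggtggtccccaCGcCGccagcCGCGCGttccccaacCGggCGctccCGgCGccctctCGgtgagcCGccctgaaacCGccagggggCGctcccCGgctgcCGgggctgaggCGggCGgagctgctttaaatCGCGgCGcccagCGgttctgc
OCLN: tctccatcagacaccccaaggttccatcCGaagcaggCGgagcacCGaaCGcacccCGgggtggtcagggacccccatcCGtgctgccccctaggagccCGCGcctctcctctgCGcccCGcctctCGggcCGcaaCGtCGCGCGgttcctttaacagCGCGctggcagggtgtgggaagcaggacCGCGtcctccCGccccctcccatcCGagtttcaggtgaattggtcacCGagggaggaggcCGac
DSC3: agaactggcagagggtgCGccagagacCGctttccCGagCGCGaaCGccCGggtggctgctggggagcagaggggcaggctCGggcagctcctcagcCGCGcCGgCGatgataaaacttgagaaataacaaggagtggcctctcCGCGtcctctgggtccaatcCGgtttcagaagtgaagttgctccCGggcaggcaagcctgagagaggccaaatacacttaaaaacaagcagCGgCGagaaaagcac

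The higher members had no common CG content in these windows. GJB2 and CLDN1 held 25 and 28 CG and CLDN4 held 4, while the lower members OCLN and DSC3 held 24 and 18. The median was 11 over the 35116 windows of the table and 9 over the 41 junction genes with an entry. The junction genes were taken at their first listed start, whereas the 35116 windows were not reduced to the first start of each gene. The same holds for the sequence search that follows. The abundant genes CLDN2 and GJA1 held 0 and 1. The sequence CAGGTG, which the SNAI and ZEB repressors bind in epithelial promoters, was searched on both strands. It was present in 10 of the 41 member windows and in 17.5% of all windows, and among the windows shown only OCLN held it. A match of letters is no evidence of binding, and methylation was not measured here.

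Of the 60 genes, 16 had 0 counts in both libraries, 15 had 1 to 9 counts summed over both, and 29 had at least 10. Of these 29, 19 had at least 100 counts in a library. By deposited TPM the most abundant junction genes were JUP at 191 TPM in sh-NC (counting interval 185 to 197) and GJA1 at 190 (interval 184 to 197), whose intervals overlapped. TJP1 followed at 123, then CLDN2 at 103 (interval 98.0 to 107) and DSG2 at 101 (interval 97.8 to 105), which also overlapped, then DSP at 75.0 and CLDN1 at 62.3. In shMBD2 the order was GJA1 at 184, JUP at 161, TJP1 at 118, CLDN2 at 117, CLDN1 at 92.7, DSG2 at 83.4 and DSP at 65.8, with overlapping intervals for TJP1 (115 to 121) and CLDN2 (112 to 122). CLDN1 thus stood at rank 7 of the 60 in sh-NC and rank 5 in shMBD2.

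**Figure D1:**
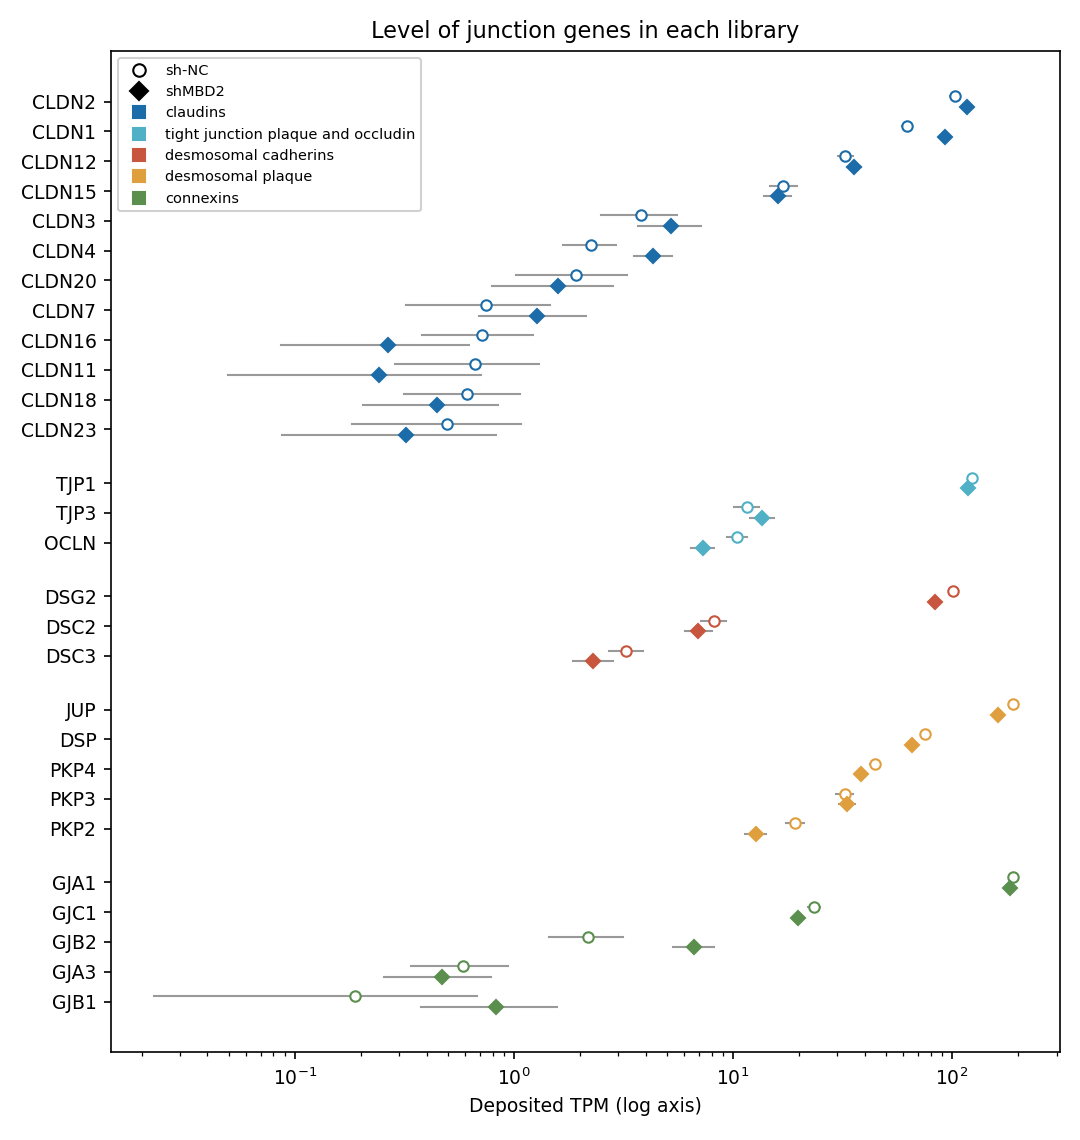
Deposited TPM (log axis) of 28 of the 29 junction genes with at least 10 counts summed, with open circles for sh-NC, filled diamonds for shMBD2 and bars for the 95% counting interval of each library. CLDN1, CLDN4 and GJB2 lie further right in shMBD2, and DSG2, JUP and PKP2 further left.

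Few junction genes passed 2-fold. Among the 29, 2 had a log2FC above 1, beside 5.48% of all 17545 genes with at least 10 counts summed, and 2 had a log2FC below -1, beside 5.07%. The higher ones were GJB2 and GJB1, and the lower ones CLDN16 and CLDN11, of which GJB2 alone had more than 20 counts summed. At 1.5-fold, 5 were higher, adding CLDN1, CLDN4 and CLDN7, beside 11% of all genes, and the same 2 were lower, beside 10.9%. None of the 19 abundant members passed 2-fold in either direction, which 1.62% of the 10917 genes did upward and 0.998% downward. CLDN1 and CLDN4 were the 2 of these 19 above 1.5-fold, beside 4.32% of genes, and 0 were below it with TMM scaling, beside 3.81%.

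Counting intervals separated more of the abundant members from 0. Of the 19, 4 had an interval above 0, beside 25.4% of the 10917 genes, and all 4 were claudins (CLDN1, CLDN2, CLDN4 and CLDN12). CLDN12 was lost with total counts or upper-quartile factors as the scaling, which left 3, and TJP3 joined with DESeq2 size factors, which gave 5. Another 8 had an interval below 0, beside 23.8%, and 6 of these were desmosomal (DSG2, DSC3, DSP, JUP, PKP2 and PKP4), the others being OCLN and GJC1. An interval narrows as counts grow, so the shares were also taken at a higher depth. Of the 8 members with at least 1000 counts in a library, 2 had an interval above 0, beside 35.3% of 3488 genes, and 4 had one below 0, beside 30.0%. The 2 were CLDN1 and CLDN2, and the 4 were DSG2, DSP, JUP and PKP4.

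**Figure D2:**
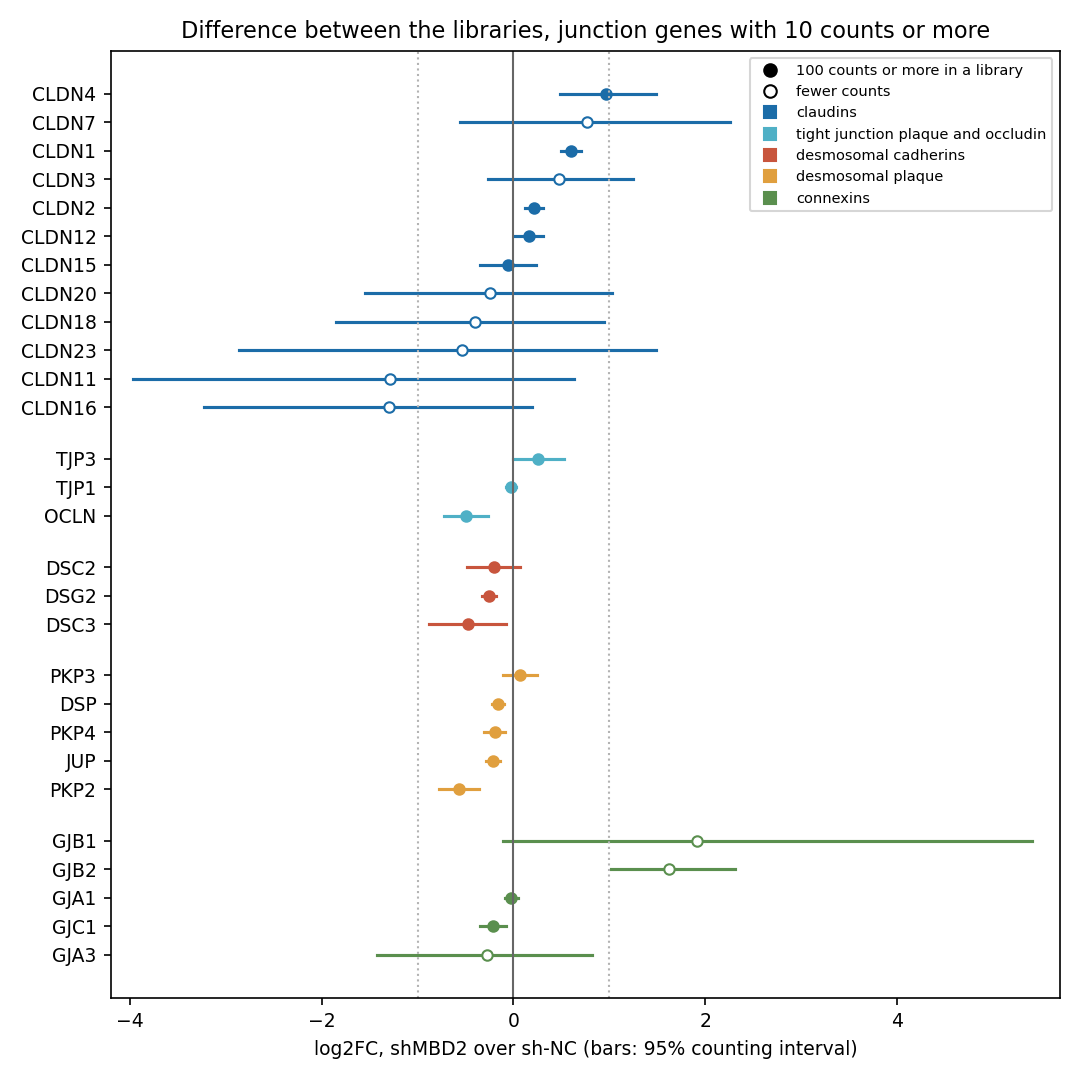
Log2FC of shMBD2 over sh-NC for 28 of the 29 junction genes with at least 10 counts summed, with 95% counting intervals as bars and dotted lines at -1 and 1. Filled points have at least 100 counts in a library, and among them the claudins lie mostly above 0 and the desmosomal genes mostly below.

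Claudins included genes on both sides of 0. Of 23 claudins, 5 were at 0 in both libraries (CLDN8, CLDN17, CLDN22, CLDN24 and CLDN25), 6 had 1 to 9 counts and 12 had at least 10. The 12 split into 6 above and 6 below a log2FC of 0, with a median of 0.049, against a median of -0.0082 over all 17545 genes. This median had no stable sign, at -0.15 over claudins with at least 1 count summed and 0.21 over those with at least 100. The 6 below 0 included only CLDN15 among those with more than 24 counts summed.

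CLDN2, which makes pores for cations and water, was the most abundant claudin, with 2099 counts (117 TPM) in shMBD2 and 1802 (103 TPM) in sh-NC. Its log2FC was 0.21 (interval 0.12 to 0.30). In the deposited coordinates CLDN2 overlaps MORC4 on the opposite strand, which had 5463 and 3236 counts and a log2FC of 0.75. Whether counting used strand is not given in the sources used here, so the part of MORC4 reads in the CLDN2 value was not tested.

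CLDN1, a sealing claudin, had 1845 counts (92.7 TPM) in shMBD2 and 1209 counts (62.3 TPM) in sh-NC. This gave a log2FC of 0.60 (interval 0.50 to 0.71), a 1.52-fold higher scaled count. Only 4.15% of the 10917 genes with at least 100 counts had a higher log2FC. CLDN1 spans 190305701 to 190322475 on the minus strand of chromosome 3 in GENCODE 29 (GRCh38). It made up 36.4% (exact binomial interval 35.1 to 37.8) of claudin counts in shMBD2 and 30.1% (28.6 to 31.5) in sh-NC. The share of CLDN2 was 41.4% (40.1 to 42.8) in shMBD2 and 44.8% (43.2 to 46.3) in sh-NC.

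CLDN4, another sealing claudin, had 103 counts (4.33 TPM) in shMBD2 and 52 counts (2.24 TPM) in sh-NC. Its log2FC of 0.97 (interval 0.48 to 1.49) was the highest of the claudins with at least 10 counts, and 1.81% of the 10917 genes lay above it. Its neighbor on chromosome 7, CLDN3, had 38 and 27 counts, for a log2FC of 0.48 (interval -0.27 to 1.25). CLDN7 had 14 and 8 counts, for a log2FC of 0.76 (interval -0.55 to 2.26), and overlaps ELP5, with 459 and 466 counts, on the opposite strand. CLDN12, a claudin that lacks the usual binding end for TJP proteins, had 731 and 651 counts (35.6 and 32.6 TPM) and a log2FC of 0.16 (interval 0.0040 to 0.31, or -0.013 to 0.30 by total counts). In the deposited coordinates it overlaps GTPBP10, with 494 and 415 counts, and CDK14, with 168 and 132, on the same strand, and their part in its value was not tested. CLDN15, a pore-forming claudin of the intestine, had 195 and 202 counts (16.0 and 17.0 TPM) and a log2FC of -0.060 (interval -0.35 to 0.23).

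The remaining claudins were near the limit of detection. CLDN16 and CLDN11, which form strands in the kidney and in myelin, had 5 and 13 counts (0.267 and 0.713 TPM) and 3 and 8 counts (0.242 and 0.662 TPM). Their log2FC of -1.30 (interval -3.23 to 0.19) and -1.29 (interval -3.97 to 0.63) passed 2-fold with intervals that contained 0. CLDN20 had 11 and 13 counts, CLDN18, the stomach and lung claudin, had 9 and 12, and CLDN23 had 4 and 6. Of the claudins with 1 to 9 counts, CLDN5, the main claudin of endothelium, had 1 and 8, CLDN6, a claudin of embryonic epithelium, 0 and 6, CLDN10 5 and 1, CLDN9 2 and 4, CLDN14 2 and 0, and CLDN19 0 and 1. A count of 0 allows up to 3 counts, or 0.205 CPM (counts scaled to library size) in shMBD2 and 0.206 in sh-NC.

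The claudin sum stayed higher when CLDN1, CLDN2 or both were left out, in settings added after seeing the data. Without CLDN1 its log2FC was 0.19 (interval 0.11 to 0.26), without CLDN2 it was 0.41 (interval 0.33 to 0.49), and without both it was 0.14 (interval 0.017 to 0.27). Of the counts left without both, CLDN12 gave 731 of 1123 in shMBD2 and 651 of 1012 in sh-NC. The part of genes that overlap CLDN2 and CLDN12 in these sums was not tested. Summed claudin levels were 275 TPM in shMBD2 and 227 TPM in sh-NC, a ratio of 1.21.

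**Figure D3:**
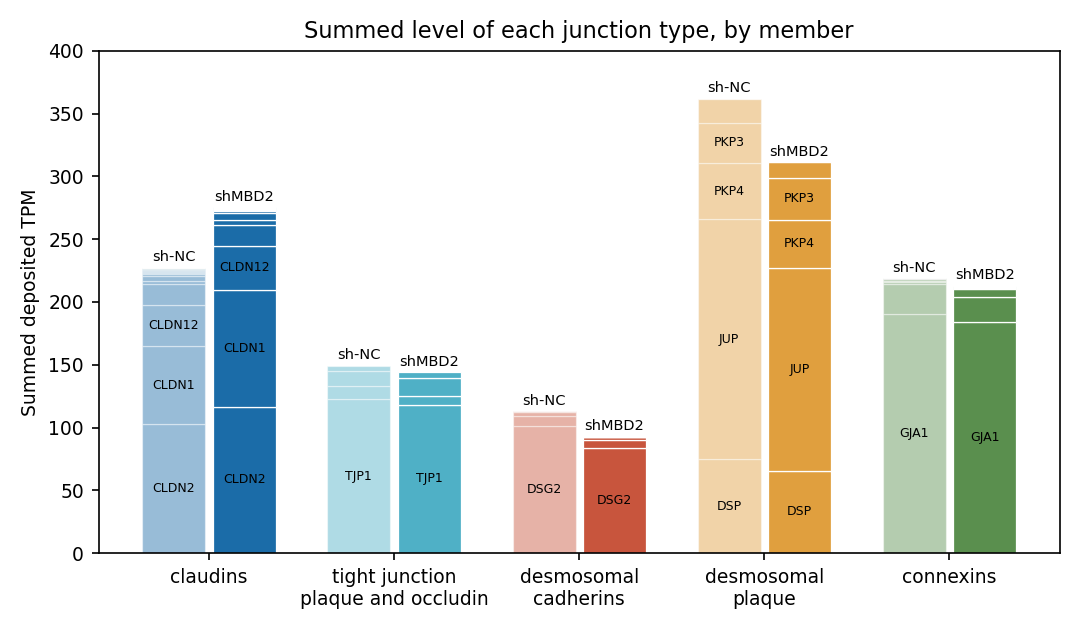
Summed deposited TPM of each junction type (linear axis from 0), with sh-NC in pale and shMBD2 in full color and each bar divided by member. The claudin bar is higher in shMBD2, at 275 against 227 TPM, and both desmosomal bars are lower.

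The other transmembrane and plaque genes of the tight junction also included genes on both sides of 0. OCLN (occludin) had 268 counts (7.28 TPM) in shMBD2 and 376 counts (10.5 TPM) in sh-NC. This gave a log2FC of -0.50 (interval -0.73 to -0.27), and 5.41% of the 10917 genes lay below it. TJP1, which encodes the main zonula occludens scaffold, had 5375 and 5443 counts (118 and 123 TPM) and a log2FC of -0.027 (interval -0.082 to 0.028), which limits any difference between these libraries to a small one. TJP3, an epithelial relative of TJP1, had 260 and 216 counts (13.6 and 11.6 TPM) and a log2FC of 0.26 (interval -0.0073 to 0.53). TJP1 gave 81.9% and 82.3% of the summed TPM of these 4 genes.

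Most desmosomal genes with at least 10 counts were lower in shMBD2. Of 13 genes, 8 had that many, and 7 of the 8 had a log2FC below 0, beside 8963 of all 17545 genes, with a median of -0.21. An interval below 0 was found for 6, beside 23.8% of all genes with at least 100 counts and 30.0% of those with at least 1000. The exceptions were DSC2, whose interval contained 0, and PKP3, which lay above 0. With TMM scaling none reached 1.5-fold, though PKP2 passed it with total counts, at -0.585, and on log2 of TPM plus 0.1, at -0.593. PKP2, a plakophilin of simple epithelia and heart, was furthest from 0, with 312 counts (12.7 TPM) in shMBD2 and 460 counts (19.2 TPM) in sh-NC. This gave a log2FC of -0.57 (interval -0.78 to -0.36), and 4.04% of the 10917 genes lay below it.

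DSG2, the desmoglein of simple epithelia, had 2779 and 3291 counts, or 83.4 and 101 TPM, and a log2FC of -0.25 (interval -0.33 to -0.18). It gave 89.8% of the summed TPM of desmosomal cadherins in both libraries. DSC2, its desmocollin partner, had 204 and 234 counts (6.96 and 8.19 TPM) and a log2FC of -0.21 (interval -0.48 to 0.070). DSC3 had 92 and 127 counts (2.31 and 3.27 TPM) and a log2FC of -0.47 (interval -0.88 to -0.075). Other cadherins known from stratified epithelium had few or no counts, with none for DSG1 and DSG3 and 0 and 1 for DSC1, and DSG4 had 5 and 1.

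In the plaque, DSP (desmoplakin), which binds keratin filaments, had 3686 and 4096 counts and a log2FC of -0.16 (interval -0.23 to -0.096). JUP (plakoglobin), shared with adherens junctions, had 3226 and 3717 counts and a log2FC of -0.21 (interval -0.28 to -0.14). In the deposited coordinates the span of JUP contains EIF1 on the opposite strand, with 5059 and 5810 counts, and its part in the JUP value was not tested. Without JUP the summed plaque was at -0.17 (interval -0.23 to -0.12). PKP4 had 1264 and 1439 counts (38.3 and 44.7 TPM) and a log2FC of -0.20 (interval -0.31 to -0.086). PKP3 had 534 and 506 counts (33.2 and 32.3 TPM) and a log2FC of 0.069 (interval -0.11 to 0.25), and PKP1, the plakophilin of stratified epithelium, was at 0.

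Among connexins with an interval that lacked 0, the largest difference was in GJB2, a minor member. GJB2, which encodes a beta connexin of liver, cochlea and skin, had 88 counts (6.67 TPM) in shMBD2 and 28 counts (2.18 TPM) in sh-NC. This gave a log2FC of 1.63 (interval 1.02 to 2.31), a 3.12-fold higher scaled count, and 421 of the 17545 genes, or 2.40%, had a higher value. The gene spans 20187463 to 20193010 on the minus strand of chromosome 13 in GENCODE 29. GJB1, the main connexin of hepatocytes, had 9 and 2 counts (0.827 and 0.188 TPM), for a log2FC of 1.92 (interval -0.11 to 5.41).

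GJA1, the most widely expressed connexin, had 3197 and 3224 counts and a log2FC of -0.021 (interval -0.092 to 0.050). It gave 86.5% of summed connexin TPM in shMBD2 and 87.0% in sh-NC, where GJB2 gave 3.13% and 0.994%. GJC1 had 866 and 999 counts (19.8 and 23.5 TPM) and a log2FC of -0.21 (interval -0.35 to -0.082). GJA3, a lens connexin, had 14 and 17 counts and a log2FC of -0.28 (interval -1.42 to 0.82). Among the 7 connexins with 1 to 9 counts, GJD3 had 0 counts in shMBD2 and 6 in sh-NC, GJC3 had 4 and 1, and GJB5, GJB7 and GJD4 had at most 2 in a library. Another 8 were at 0, among them GJA4, GJA5, GJA9, GJA10, GJB6 and GJD2, which include connexins of endothelium, heart and neurons.

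**Figure D4:**
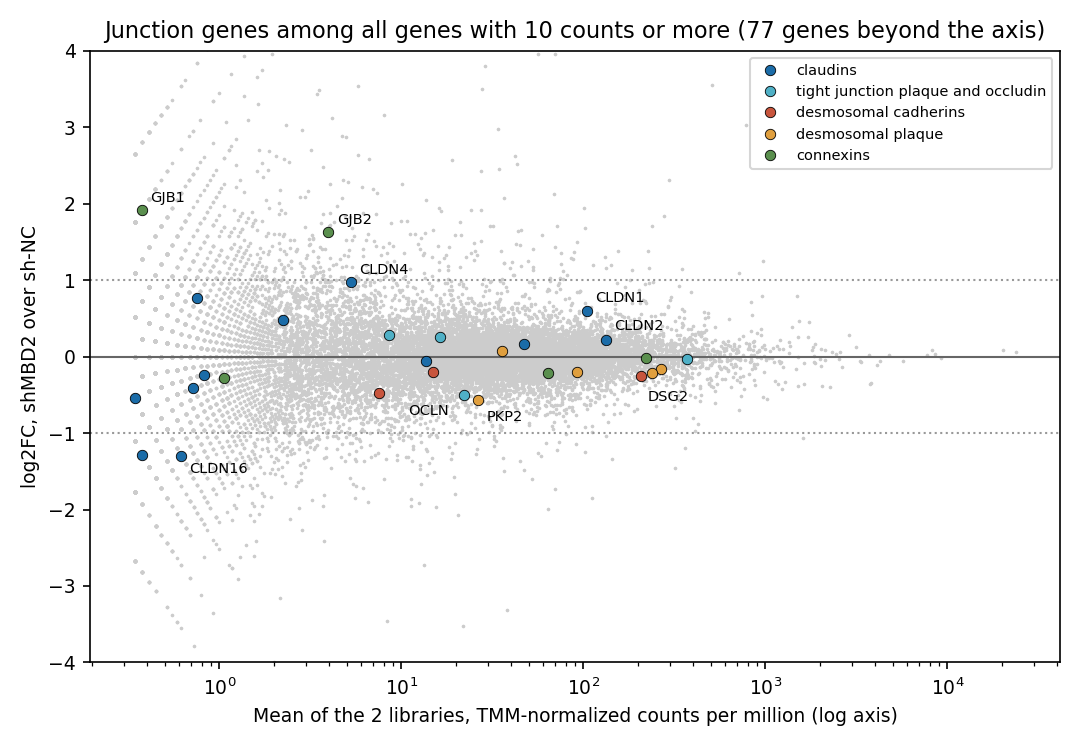
Log2FC of shMBD2 over sh-NC against the mean of the 2 libraries in TMM-normalized CPM (log axis) for all 17545 genes with at least 10 counts summed (grey) and the 29 junction genes among them (colored by type), with 77 genes beyond the vertical axis, which ends at 4 and -4. GJB1 and GJB2 lie above the dotted line at 1, while most junction genes lie within the grey cloud.

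Partner genes of each junction were read from lists and set beside the shares over all genes. Of 25 other tight junction genes in the table, 22 had at least 10 counts, 8 above and 14 below a log2FC of 0, with a median of -0.25 that was -0.034 with at least 100 counts summed and -0.035 with at least 1. Among the 17 abundant ones, 3 had an interval above 0 and 7 below, beside 25.4% and 23.8% of all genes at that depth. The most abundant were PARD3, a polarity protein, with 4276 and 2932 counts and a log2FC of 0.54 (interval 0.47 to 0.60), and SYMPK, with 1988 and 1946 and 0.022. PRKCI, a polarity kinase, had 1458 and 1484 counts, and MPP5 (PALS1), of the Crumbs complex, had 1248 and 1471 and a log2FC of -0.25. None passed 2-fold upward, and CRB3, the epithelial Crumbs protein, was the 1 gene past it downward, with 25 and 54 counts and a log2FC of -1.10 (interval -1.87 to -0.41), beside 5.48% and 5.07% of all genes. MARVELD2 (tricellulin), the occludin relative that seals corners between 3 cells, was named after its value was seen, with 97 and 143 counts and a log2FC of -0.57 (interval -0.96 to -0.19). JAM3, an adhesion molecule of the junction named in the same way, was higher, with 397 and 259 counts and a log2FC of 0.61 (interval 0.38 to 0.84).

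The adherens junction list had 12 genes with at least 10 counts, 9 above and 3 below 0, with a median of 0.17. Of 11 abundant ones, 6 had an interval above 0 and 3 below, beside 25.4% and 23.8% of all genes with at least 100 counts and 35.3% and 30.0% of those with at least 1000. CTNNA1, which links cadherins to actin, had 6080 and 6633 counts (log2FC -0.13), VCL (vinculin) 5793 and 4039 (log2FC 0.51, interval 0.45 to 0.57), CTNND1 5072 and 5629 (log2FC -0.16) and CTNNB1 4031 and 3532 (log2FC 0.18). PVRL4, a nectin, passed 2-fold with 30 and 14 counts and a log2FC of 1.06 (interval 0.13 to 2.12), a call that was lost with a prior of 2 or on either TPM scale. It was the 1 gene of this list past 2-fold upward and 0 were past it downward, beside 5.48% and 5.07% of all genes. CDH1 (E-cadherin), named after its value was seen, had 2342 and 1762 counts and a log2FC of 0.40 (interval 0.31 to 0.49). CDH2 (N-cadherin), also named after its value was seen, had 713 and 499 counts and a log2FC of 0.51 (interval 0.34 to 0.67).

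A list of genes linked to desmosomes was read in the same way. Of 12 plakins, keratins and PERP, 7 had at least 10 counts, all of them abundant, with 6 below 0, 5 with an interval below 0 and a median of -0.17, beside 23.8% of all genes with at least 100 counts and 30.0% with at least 1000. KRT8, a keratin that desmosomes anchor, had 49193 counts in shMBD2 and 62047 in sh-NC (log2FC -0.34, interval -0.36 to -0.33), and its partner KRT18 had 6277 and 7981, a log2FC of -0.36. KRT7 had 11632 and 12975 counts (log2FC -0.17) and PERP, a desmosomal membrane protein, 5466 and 6014 (log2FC -0.15). None passed 2-fold, which 5.48% of all genes did upward and 5.07% downward. PPL (periplakin), a relative of desmoplakin named after its value was seen, had 322 and 594 counts and a log2FC of -0.89 (interval -1.09 to -0.69). KRT19 was the gene above 0, at 0.75 (interval 0.32 to 1.20) with 119 and 70 counts.

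Pannexins and other large-pore channel genes gave 3 genes with at least 10 counts, all above 0 with a median of 0.18. Of all 17545 genes, 8582 lay above 0. PANX1 had 335 and 313 counts, PANX2 131 and 115, and CALHM2 55 and 40, each with an interval that contained 0. None passed 2-fold, beside 5.48% of all genes upward and 5.07% downward.

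Transcription factors known to act on junction genes differed in both directions. Of 22, 19 had at least 10 counts, 9 above and 10 below 0, with a median of -0.12 that was -0.34 with at least 100 counts summed. Of the 19, 3 passed 2-fold upward and 1 downward, beside 5.48% and 5.07% of all genes. Of the 9 with at least 100 counts in a library, 1 had an interval above 0 and 6 below, beside 25.4% and 23.8% of all genes at that depth. EHF, an epithelial ETS factor, had 517 and 214 counts and a log2FC of 1.26 (interval 1.03 to 1.5). SNAI2, a repressor of epithelial genes, had 37 and 3 counts and a log2FC of 3.41 (interval 1.96 to 5.96), and ESRP1, a splicing regulator kept in this list, had 15 and 7 and 1.04 (interval -0.29 to 2.63). HNF4A, a hepatic and intestinal factor, was the 1 gene past 2-fold downward, with 309 and 631 counts and a log2FC of -1.04 (interval -1.24 to -0.84). ELF3 had 1696 and 2582 counts (log2FC -0.62), KLF5 1509 and 1907 (log2FC -0.35) and ZEB1 671 and 620 (log2FC 0.11, interval -0.054 to 0.27). GRHL2 and OVOL1, factors of epithelial differentiation, had no counts in either library.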

How the data were processed

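RNA-seq of shMBD2 and sh-NC TFK1 cells was used, with 1 library per group and so no test. The authors deposited raw whole-number read counts per gene and, in a separate table, TPM values. The submitters' processing notes name fastp, HISAT2 2.1.0, featureCounts, DESeq 1.18.1 and the build GRCh38.p13, whereas gene coordinates in the tables differ from GRCh38. Strandedness is not given in the sources used here. The 46 lines without a gene and 7039 rows that repeat a symbol with the same counts were dropped, which left 56638 genes. Positions come from GENCODE 29 and promoters from RefSeq.

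Counts were scaled with TMM factors in edgeR 4.0.16 (R 4.3.3), and log2FC used a prior of 0.5 counts for genes with at least 10 counts summed. Intervals are exact Clopper-Pearson (95%, scipy 1.17.1) for the split of reads between the libraries and for shares, and exact Poisson for TPM. They cover counting error only, and reads are not independent molecules. The script was tested on simulated data. A gene was called past a fold of 2 or 1.5, or where its interval lacked 0. Members and lists were chosen with earlier results of these data known. Members with at least 100 counts in a library or past 2-fold are named with full values, and of each partner list the genes past 2-fold with at least 100 counts and up to 4 most abundant. Genes outside this rule were chosen after their values were seen, as were CRB3, PVRL4, SNAI2, ESRP1, KRT19, GRHL2, OVOL1 and, among the overlaps, MORC4 and EIF1. Some genes that met the rule are counted in the totals and not reported here by name.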

Additional observations from a re-analysis of the deposited data

How the results depend on the processing

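The alternatives were other scalings (DESeq2 size factors, total counts, upper-quartile factors), log2 of TPM plus 0.1 or 1, prior counts of 2 or 0.1, filters at 1 or 100 counts summed and a fold of 1.5. Log2FC was recomputed for 23 junction genes, those with at least 100 counts in a library or past 2-fold, and none changed sign or left its counting interval, although GJB1, CLDN11 and CLDN16 have no value with at least 100 counts summed. The alternatives were not run singly for CLDN3, CLDN7, CLDN18, CLDN20, CLDN23 and GJA3. GJB2 lay between 1.27 and 1.64, CLDN4 between 0.72 and 0.98, CLDN1 between 0.57 and 0.61, OCLN between -0.52 and -0.47, PKP2 between -0.59 and -0.56 and MBD2 between -1.50 and -1.45. No other scaling moved a number of genes past 2-fold by more than 1.5 times. No paired analysis was possible because each group has 1 library.

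The numbers of genes past 2-fold rest on genes with few reads. With log2 of TPM plus 1, 1 of 29 junction genes was higher (a connexin) and 0 were lower, beside 2.13% and 1.94% of 17545 genes. On this scale 0 claudins were lower. With at least 100 counts summed, again 1 of 20 was higher (a connexin) and 0 were lower, beside 1.78% and 1.06% of 11972 genes. At this filter 0 claudins were lower. With at least 1 count summed, 7 of 44 were higher and 8 lower, beside 16.6% and 15.8% of 27295 genes at that filter: 2 and 5 claudins, 1 and 1 desmosomal cadherins, and 4 and 2 connexins, whose median moved to -0.12. The claudin median turned from 0.049 to -0.15 there. At a fold of 1.5, 5 junction genes were higher, 3 of them claudins.

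Among partner genes, other tight junction genes had 0 past 2-fold downward with log2 of TPM plus 1 and with at least 100 counts, 2 upward with at least 1 count, and 1 upward and 4 downward at 1.5-fold. Adherens junction genes had 0 upward with either TPM setting, a prior of 2 or at least 100 counts, and 2 with at least 1 count. Desmosome-linked genes had 3 upward and 2 downward with at least 1 count, and 1 and 1 at 1.5-fold. Large-pore channel genes had 1 and 1 with at least 1 count. Transcription factors had 2 upward, against 3, with either TPM setting or a prior of 2, and 1 upward with at least 100 counts. They had 2 downward with at least 1 count, and 4 upward and 4 downward at 1.5-fold. The cause of these changes is the number of genes kept, the fold, or a pseudocount that pulls low genes towards 0.

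As TMM-normalized CPM, which are not divided by gene length, the summed levels in shMBD2 and sh-NC were 346 and 276 for claudins, 413 and 422 for the tight junction plaque and occludin, 210.3 and 251 for desmosomal cadherins, 616 and 702 for the desmosomal plaque, 286 and 294 for connexins, and 1871 and 1947 for all 60. In settings added after seeing the data, the summed claudins were at 0.19 without CLDN1, 0.41 without CLDN2 and 0.14 without both. Also added then, intervals lay above 0 for 5 members with DESeq2 size factors and 3 with total counts or upper-quartile factors, against 4, and below 0 for 8 with each. Depth limits the low members, and with 1 library per group no spread between cultures could be given.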
